A study of Mus musculus with 2 samples.

Results

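The cytosolic ribosomal protein genes were followed in sorted hippocampal microglia of young mice. Members were all gene symbols made of Rpl or Rps and a number, together with Rplp0, Rplp1, Rplp2 and Rpsa, without the Rps6k kinases and without symbols marked as pseudogenes by -ps. This rule found 86 of 32245 symbols. Of these, 77 encode the proteins of the standard ribosome (46 of the large and 31 of the small subunit) and are called core members here, and 9 are paralogs or related genes (Rpl10l, Rpl22l1, Rpl36al, Rpl39l, Rpl3l, Rpl7l1, Rps19bp1, Rps27l and Rps27rt). Fau, which encodes a further ribosomal protein as a fusion with a ubiquitin-like protein, lies outside the rule and is described beside the members. The study compared 1 Control library with 1 library labelled FGR, short for fetal growth restriction. Both came from mice of the genotype Tmem119-tdTomato+/-, aged 3 weeks after birth, so the controls carry the reporter allele too. Tmem119 is a microglial surface protein, and the labels give flow sorting of cells positive for it before single-cell 3′ library preparation. How many animals were pooled for a library is not stated in the labels.

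Cytosolic ribosomes are built from ribosomal RNA and mostly a single copy of each ribosomal protein, and the ribosomal protein mRNAs are among the most abundant of a cell. Their transcripts carry a 5′ terminal oligopyrimidine (TOP) motif, a C followed by a run of C and T at the very start of the mRNA, through which the kinase complex mTORC1 and the protein LARP1 control their translation together. Microglia are the resident macrophages of the brain.

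The start regions of some members with such a run, and of Fau, are shown as examples. Members were defined by their symbols and not by this motif. Each window holds 15 bases before and 15 bases from the annotated start (RefSeq, GRCm38.p6), 5′ to 3′ on the gene's strand, with the run of C and T in capitals. The windows lie at chr4:86857353-86857382 (Rps6, minus strand), chr14:18270972-18271001 (Rpl15, minus), chr2:39005117-39005146 (Rpl35, minus), chr11:114668565-114668594 (Rpl38, plus), chr7:141447636-141447665 (Rplp2, plus) and chr19:6057932-6057961 (Fau, plus). Rpl22 and its paralog Rpl22l1 are shown too, because their levels went opposite ways across the immediate early strata described later. Their windows lie at chr4:152324421-152324450 (Rpl22, the first of 2 annotated starts) and chr3:28805493-28805522 (Rpl22l1), both on the plus strand.
Rps6: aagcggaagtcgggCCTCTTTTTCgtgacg
Rpl15: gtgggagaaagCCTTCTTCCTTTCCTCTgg
Rpl35: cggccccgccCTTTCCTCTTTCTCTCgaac
Rpl38: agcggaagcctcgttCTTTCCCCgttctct
Rplp2: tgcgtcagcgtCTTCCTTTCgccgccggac
Fau: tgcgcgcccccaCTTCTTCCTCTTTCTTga
Rpl22: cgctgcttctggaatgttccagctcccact
Rpl22l1: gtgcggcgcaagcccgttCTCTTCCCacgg
The RefSeq table held 67 start windows for 57 of the 77 core symbols. A run of at least 8 bases that starts with C within 5 bases of the annotated start was present in 29.9% of the core windows and in 4.72% of 3620 windows of measured genes that are no members. For a run of at least 5 bases the shares were 43.3% and 19.4%, so most core windows held no such run. The letters AAGATGG, read on both strands over 250 bases before to 50 after the start, were in 16.4% of core windows against 7.40%, and CCGGAAG in 37.3% against 17.0%. These searches were made separately, so a window may count for more than one motif. They describe letters at annotated starts, which may differ from the starts used in microglia.

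A barcode was used as a cell when it held at least 1500 unique molecular identifiers (UMIs, 1 per captured mRNA molecule), at least 200 genes and at most 10% mitochondrially coded UMIs. This gave 10687 Control and 8618 FGR cells with 53560293 and 45441515 UMIs and medians of 4657 and 4919.5 UMIs. All 12 microglial markers were measured in both libraries and summed to 37825 and 37138 counts-per-million UMIs (CPM). The 57 markers of oligodendrocytes, astrocytes, neurons, vessels, blood and other immune cells summed to 641 and 782 CPM, and 3 of them were at 0 in Control cells and 1 in FGR cells. The libraries shared 31 cell barcodes. With 1 library per group there is no spread between animals and no test was possible. The 95% intervals given here are exact Poisson for levels, exact conditional for ratios and exact Clopper-Pearson for shares. Normal approximations were used for ratios in cells matched on immediate early genes and for differences between shares. All cover counting error only, and a difference between Control and FGR cannot be told apart from a difference between 2 libraries.

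Ribosomal protein transcripts made up nearly the same share of the mRNA in both libraries. The members held 9.08% of the UMIs of Control cells (9.07 to 9.09%) and 8.94% of those of FGR cells (8.94 to 8.95%), a ratio of 0.985 (0.984 to 0.986). Large-subunit genes held 1.22 times the UMIs of small-subunit genes in the Control and 1.23 times in the FGR library. The direction of this small difference turned when cells were matched on immediate early gene UMIs, as described with those genes, where the member share was 8.76% in Control and 9.27% in FGR cells. Barcodes with 10 to 100 UMIs, which mostly hold free RNA, had member shares of 6.67% and 7.39%, so the member share of free RNA was higher in the FGR library where that of the cells was lower.

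Levels of the core members spanned 371 to 3276 CPM. The counts are taken at transcript ends, 1 per molecule, and are not divided by length. Rplp1, which encodes an acidic protein of the ribosomal stalk, was the highest in both libraries, at 2951 CPM (2937 to 2966) in Control and 3276 CPM (3260 to 3293) in FGR cells. Its gene lies at chr9:61913284-61914542 (GRCm38, minus strand). Rps29, a small zinc-binding protein of the 40S subunit, followed at 2860 and 3063 CPM. The next by mean level included Rps14 (2124 and 2022 CPM), Rpl13 (1918 and 1980 CPM), Rps24 (1826 and 1914 CPM), Rps12 (1837 and 1887 CPM), Rps9 (1883 and 1715 CPM), Rps23 (1783 and 1732 CPM) and Rpl27a (1688 and 1695 CPM). At the other end stood Rpl31 (371 and 376 CPM), Rpl4 (422 and 405 CPM) and Rpl36a (447 and 447 CPM). Rpl35, Rpl38, Rpl36, Rpl29, Rps26 and Rpl14 were also among the 10 lowest, all between 496 and 661 CPM in both libraries. From Rpl31 to Rplp1, the ends of the core range, counts thus differed 7.96-fold in the Control and 8.72-fold in the FGR library. The order of the 77 genes was nearly the same in both (Spearman rho 0.99, a description over genes).

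**Figure D1:**
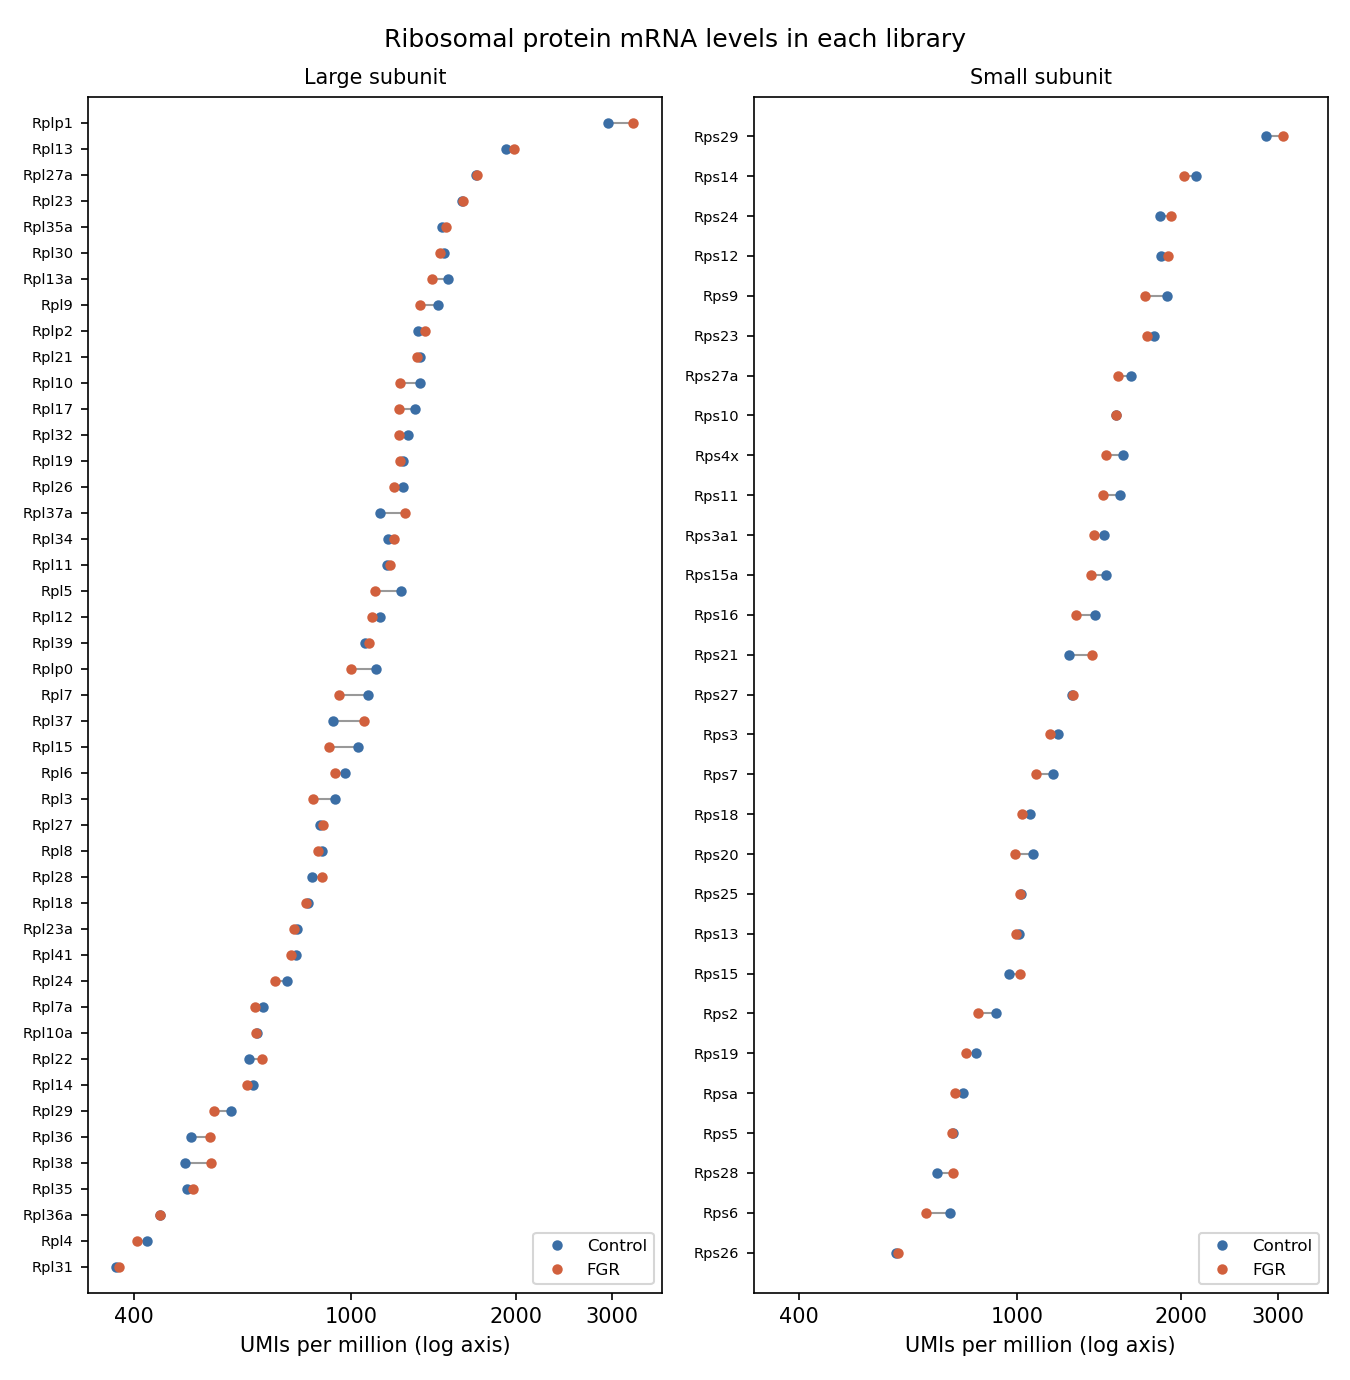
Levels of core ribosomal protein genes in CPM (log axis), large-subunit genes on the left and small-subunit genes on the right, in order of mean level; each point is 1 library (blue, Control; orange, FGR) and the grey line joins both. Rplp1 and Rps29 stand apart at the top in both libraries, at 2860 or more, and the blue and orange points of each gene shown lie close together compared with the range across genes.

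No member differed between the libraries by the larger fixed rule, an interval wholly above 1.5-fold or below its inverse, which 3.64% of the 3512 measured genes met (2.48% higher and 1.17% lower in FGR). Measured genes are those with at least 50 CPM in at least 1 library, and 81 members passed, all 77 core members among them. By the smaller rule of 1.2-fold the count was also 0 of 81, against 13.4% of measured genes (5.52% higher and 7.92% lower). Core ratios of FGR over Control ran from 0.886 (Rpl7) to 1.14 (Rpl37). Counting error was small at these levels, with intervals reaching at most 2.05% to either side, so 19 core members had an interval wholly above 1 and 42 wholly below 1, while that of 16 held 1. Over all measured genes 23.0% lay wholly above and 53.0% wholly below 1, shares near those of the core members. The median log2 ratio of the measured members was -0.02, beside -0.07 over all measured genes, and with ratios scaled to the median measured gene it was 0.04. The core members stayed close to each other: the standard deviation of their log2 ratios was 0.08, against 0.37 for the 296 non-members in the same range of levels, and 100% against 69.3% lay within 1.2-fold.

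Within this narrow range, most roles held members on both sides of 1. The stalk, which recruits and activates the translation factors, held members at both ends. Its acidic proteins Rplp1 (ratio 1.11, 1.102 to 1.118) and Rplp2 (1325 and 1363 CPM, ratio 1.03) were higher in the FGR library. Rplp0, the scaffold that binds them, had 1108 and 999 CPM (ratio 0.901, 0.891 to 0.913), and Rpl12 at the stalk base 1130 and 1091 CPM (ratio 0.966). Genes of the same structure thus stood on either side of 1.

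Around the exit tunnel, through which the new peptide leaves, Rpl35 (501 and 514 CPM, ratio 1.03) and Rpl39 (1060 and 1076 CPM, ratio 1.01) were slightly higher in the FGR library. Rpl17 (1306 and 1222 CPM, ratio 0.936), Rpl4 (ratio 0.959), Rpl26 (1242 and 1196 CPM, ratio 0.963) and Rpl23a (794 and 784 CPM, ratio 0.987) had ratios under 1. Near the peptidyl transferase centre, where peptide bonds form, all 3 listed genes were lower: Rpl3 (932 and 851 CPM, ratio 0.913), Rpl10 (1335 and 1226 CPM, ratio 0.918) and Rpl8 (885 and 868 CPM, ratio 0.981). The median ratio over all measured genes was 0.954, so these 3 lay on both sides of it. The 5S particle partners, which also bind the p53 regulator Mdm2 when ribosome assembly fails, differed from each other. Rpl5 had 1232 and 1106 CPM (ratio 0.898, 0.887 to 0.908), while Rpl11 had 1164 and 1175 CPM (ratio 1.01, 0.998 to 1.02).

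On the small subunit, the proteins of the decoding centre and the mRNA path were likewise mixed. Rps28 (715 and 764 CPM, ratio 1.07) and Rps15 (969 and 1015 CPM, ratio 1.05) were higher in the FGR library, and the interval of Rps26 at the mRNA exit held 1 (600 and 606 CPM, ratio 1.01, 0.994 to 1.03). Rps2 (915 and 849 CPM, ratio 0.927), Rps3 (1190 and 1151 CPM, ratio 0.967) and Rps23 (ratio 0.971) were lower. Rps27a, made as a fusion with ubiquitin, had 1615 and 1531 CPM (ratio 0.948). Rps6, the S6 kinase substrate whose phosphorylation is a common readout of mTORC1, had 755 and 683 CPM (ratio 0.905, 0.892 to 0.918).

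The ends of the ratio order differed in coding length, a property looked at after the data were seen. The 6 highest ratios belonged to Rpl37 (924 and 1053 CPM, ratio 1.14), Rpl38 (496 and 554 CPM, ratio 1.12), Rplp1 (1.11), Rpl37a (1130 and 1251 CPM, ratio 1.11), Rps21 (1247 and 1375 CPM, ratio 1.103) and Rpl36 (509 and 552 CPM, ratio 1.09), with coding sequences of 291, 210, 342, 276, 249 and 315 bases. The 6 lowest belonged to Rpl7 (1072 and 949 CPM, ratio 0.886), Rpl15 (1027 and 911 CPM, ratio 0.887), Rpl5, Rplp0, Rps6 and Rps9 (ratio 0.911), with 810, 612, 891, 951, 747 and 582 bases. The median core coding length was 456 bases, so all 6 highest were shorter and all 6 lowest longer.

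Over the 77 core genes the Spearman rho between coding length and ratio was -0.69, and -0.48 with transcript length, a description across genes that share both libraries. The 39 shorter core genes had a median log2 ratio of 0.02 and the 38 longer ones of -0.07, beside -0.07 over all measured genes. In genes with fewer than 300 coding bases the core median log2 ratio was 0.10 (9 genes), and 0.05 in 116 other measured genes. Between 800 and 1300 bases it was -0.12 (8 genes), and -0.08 in 767 others. Over 1642 non-members no longer than the longest core gene the rho was -0.15, so the order by length was weaker there. GC content (rho 0.13) and level (rho -0.14) followed the core ratios less closely. Free RNA barcodes gave a rho of -0.40 between coding length and their own ratio, and the core ratios in free RNA and in cells had a rho of 0.63 with each other.

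**Figure D2:**
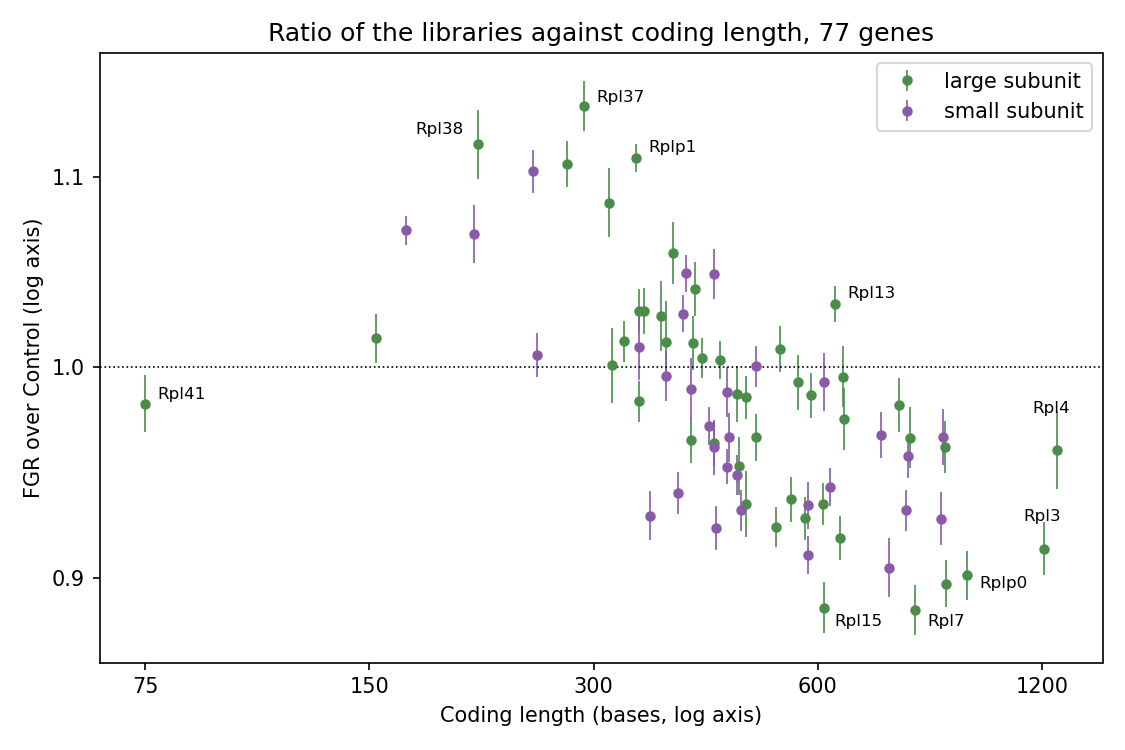
Ratio of FGR over Control (log axis) against coding length in bases (log axis) for the 77 core genes, coloured by subunit; bars are 95% counting intervals and the dotted line marks a ratio of 1. Short genes such as Rpl37, Rpl38 and Rplp1 lie above the line, and Rpl7, Rplp0 and Rpl3 lie under it; Rpl41, the shortest at 75 bases, is an exception at 0.982, and Rpl13 is one at 1.03.

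Rpl41 also shares near-identical sequence with the predicted gene Gm10076 (99.5% over 383 aligned bases), which held 250 and 257 CPM beside the 791 and 777 CPM of Rpl41. In all, 12 annotated genes matched a core transcript at 95% identity or more over at least 200 bases and summed to 401 and 415 CPM, or 0.441% of the members' Control UMIs. Among them is Rps27rt (22.6 and 26.6 CPM), which the symbol rule already counts as a member. The counts of these genes may belong to the core members they match. For single members the copy can weigh more than in this sum: Gm10076 held 31.6% of the Control level of Rpl41, and with it added the ratio of Rpl41 was 0.993 (0.981 to 1.01) in place of 0.982 (0.968 to 0.996), a setting chosen after the data were seen.

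The paralogs were expressed below their core counterparts. Rpl36al, an autosomal copy of X-linked Rpl36a with 80.1% identical aligned bases, had 289 and 303 CPM (ratio 1.05). Rpl22l1 encodes a paralog that can replace RPL22 on the large subunit, and RPL22 is known to repress it. With 71.5% of aligned bases identical to Rpl22, it had 221 and 220 CPM (ratio 0.999, 0.973 to 1.03), where Rpl22 had 649 and 687 CPM (ratio 1.06). Rps27l had 121 and 126 CPM beside 1260 and 1268 CPM of Rps27. Rpl7l1 had 85.1 and 70.1 CPM (ratio 0.824, 0.787 to 0.862), so that its ratio was the lowest of the 81 measured members.

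The other 5 members stayed under the minimum for measured genes. Rps19bp1, which encodes a binding partner of Rps19 and not a ribosomal protein, had 27.6 and 29.1 CPM. Rps27rt, 100% identical to Rps27 over 341 of its 374 transcript bases, had 22.6 and 26.6 CPM. Rpl39l had 3.55 and 2.64 CPM, from 190 and 120 UMIs. Rpl10l, known from testis, gave 1 UMI among Control cells and 0 among FGR cells. Rpl3l, known from striated muscle, gave 0 in both, which allows up to 0.0560 CPM in Control and 0.0660 CPM in FGR cells by a limit of 3 counts per library.

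Cells of the same library differed far more in ribosomal protein content than counting alone would give. The median cell held 7.96% member UMIs in Control and 7.92% in FGR, with 5th to 95th percentiles of 4.71 to 16.1% and 4.31 to 15.8%. The standard deviation over cells was 3.61 and 3.89 percentage points, where counting alone at these depths would give 0.432 and 0.422. Large-subunit and small-subunit UMIs moved together over cells, with Pearson r of 0.91 and 0.92 once every cell was thinned to 1500 UMIs. These correlations describe cells of 1 library each, which share that library's capture and depth.

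Member share also moved with depth. Over 5 equal strata of cells, from the fewest to the most UMIs, it was 8.16, 8.06, 8.37, 9.15 and 10.3% in Control and 8.33, 7.77, 8.16, 8.998 and 10.2% in FGR. The deepest stratum was thus the highest in both libraries. At 1500 UMIs per cell, member UMIs had an r of -0.68 and -0.65 with the number of genes detected, of 0.52 and 0.52 with mitochondrially coded UMIs, of -0.44 and -0.43 with nuclear RNA UMIs and of -0.40 and -0.34 with immediate early UMIs. As the total is fixed at 1500, more member UMIs leave fewer for other genes. How much of the negative r values this gives was not tested.

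The member share also differed along the immediate early genes, a list of 26 rapidly induced genes such as Fos, Jun, Egr1 and Dusp1. Cells were ranked by their UMIs of this list after thinning to 1500 UMIs, cut into 3 equal strata, and the list was left out of the total. In Control cells the member share was 10.8% (10.8 to 10.9%) in the lowest stratum, 8.89% in the middle and 7.65% (7.63 to 7.68%) in the highest. In FGR cells it was 10.3% (10.2 to 10.3%), 9.38% and 7.79% (7.77 to 7.82%). The highest minus the lowest stratum was thus -3.18 percentage points in Control and -2.48 in FGR. The highest also had the lowest mitochondrially coded share, 1.73% against 2.67% in Control and 1.68% against 2.61% in FGR. The share of nuclear RNAs (Malat1, Neat1, Meg3 and Kcnq1ot1) was higher there, 2.57% against 2.17% and 2.72% against 2.52%. Other-cell-type markers were lower there, 551 against 722 CPM in Control and 486 against 851 CPM in FGR. Their part in the member share was not tested. With mitochondrial and nuclear list genes also left out of the total, the difference was -3.38 and -2.66 percentage points, and among cells of 4000 to 6000 UMIs it was -2.82 and -2.24. These settings were chosen after the data were seen.

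**Figure D3:**
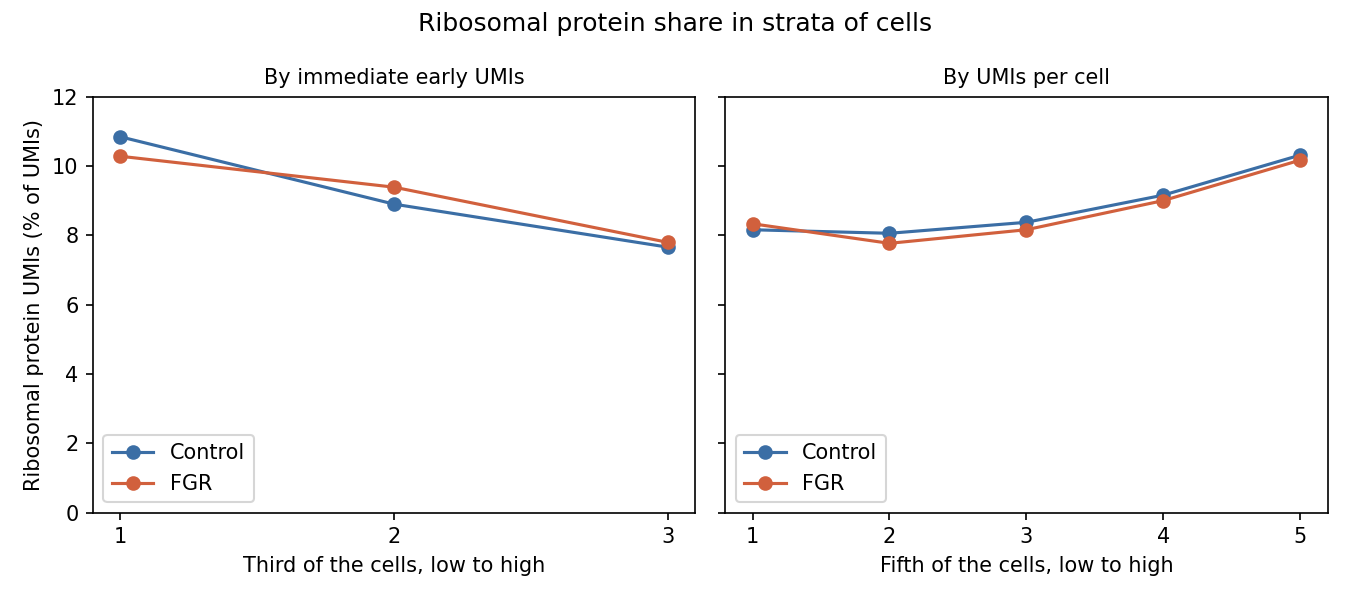
Share of UMIs from ribosomal protein genes (percent) in 3 strata of cells by immediate early UMIs (left, list genes left out of the total, cells thinned to 1500 UMIs; the 95% counting intervals are smaller than the points) and in 5 strata by UMIs per cell (right), for Control (blue) and FGR (orange). On the left the share goes from 10.8 to 7.65% and from 10.3 to 7.79%; on the right the deepest cells hold 10.3 and 10.2%.

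The libraries differed in how many cells lay in these ranges. The immediate early list summed to 34352 CPM in Control and 47559 CPM in FGR cells. Of its 25 measured genes 17 were higher and 3 lower in FGR by the 1.2-fold rule, where 5.52% and 7.92% of measured genes were. Dusp1 (579 and 2711 CPM, ratio 4.68) was among the higher and Egr1 (3777 and 2853 CPM, ratio 0.755) among the lower. Cells with the same list sum may thus differ in which list genes they hold, which was not tested. With 3 strata cut over both libraries together, 23.8% of Control and 45.8% of FGR cells lay in the highest and 40.4% and 24.5% in the lowest. When these common strata were weighted equally, the members held more of the FGR than of the Control UMIs (ratio 1.06). For this, all UMIs of the cells were counted, with the list left in the total. Within a stratum the libraries may still differ in list UMIs, which was not tested. The median log2 ratio of the members was then 0.07, and that of all measured genes was -0.06. Of the 77 core ratios 62 were above 1, where 37.3% of measured genes were. The interval lay wholly above 1 for 54 core members and wholly below for 9, against 27.7% and 49.7% of measured genes. Then 1 member passed the 1.2-fold rule, Rpl37 (ratio 1.23, 1.21 to 1.25), where 5.58% of measured genes were higher by that rule. The order by coding length was as before, with a rho of -0.70.

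Every core member was lower in cells with more immediate early UMIs. In both libraries 77 of 77 core genes had a ratio of highest over lowest stratum with an interval wholly below 1, while 16.5% of 3487 measured genes outside the list did in Control and 15.7% in FGR. The core median ratio was 0.702 in Control and 0.756 in FGR, where 3406 measured non-members had medians of 1.04 and 1.03. Rpl36 had 634 CPM in the lowest and 404 CPM in the highest Control stratum (ratio 0.637), the smallest Control ratio, and 698 and 460 CPM in FGR (ratio 0.659). Rpl35 had the smallest FGR ratio, 0.645. Rpl7a was the least affected core gene, with ratios of 0.818 in Control and 0.899 in FGR. The order of the members' ratios was alike in the libraries (Spearman rho 0.74 over genes, which share the list that ranked the cells). Core genes with longer coding sequences had ratios nearer to 1 (rho 0.40 and 0.52).

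Rpl22l1 went the opposite way. It had 198 CPM in the lowest and 262 CPM in the highest stratum of Control cells, a ratio of 1.33 (1.22 to 1.44), from 1040 and 1327 UMIs. In FGR cells it had 189 and 266 CPM, a ratio of 1.41 (1.29 to 1.55), from 795 and 1061 UMIs. Rpl22 followed the core genes, with 792 and 539 CPM in Control (ratio 0.681, 0.649 to 0.715) and 819 and 590 CPM in FGR (ratio 0.720, 0.683 to 0.759). The paralogs therefore lay on opposite sides of 1 in both libraries, and did so under all 8 other settings of the strata tried, where Rpl22l1 had ratios of 1.25 to 1.35 in Control and 1.34 to 1.54 in FGR. Rpl7l1 did not leave 1 (1.02, 0.892 to 1.16, and 0.917, 0.779 to 1.08). Rpl36al (0.703 and 0.799) followed the core genes, as did Rps27l in Control (0.760, 0.679 to 0.851), while its FGR interval held 1 (0.895, 0.792 to 1.01).

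**Figure D4:**
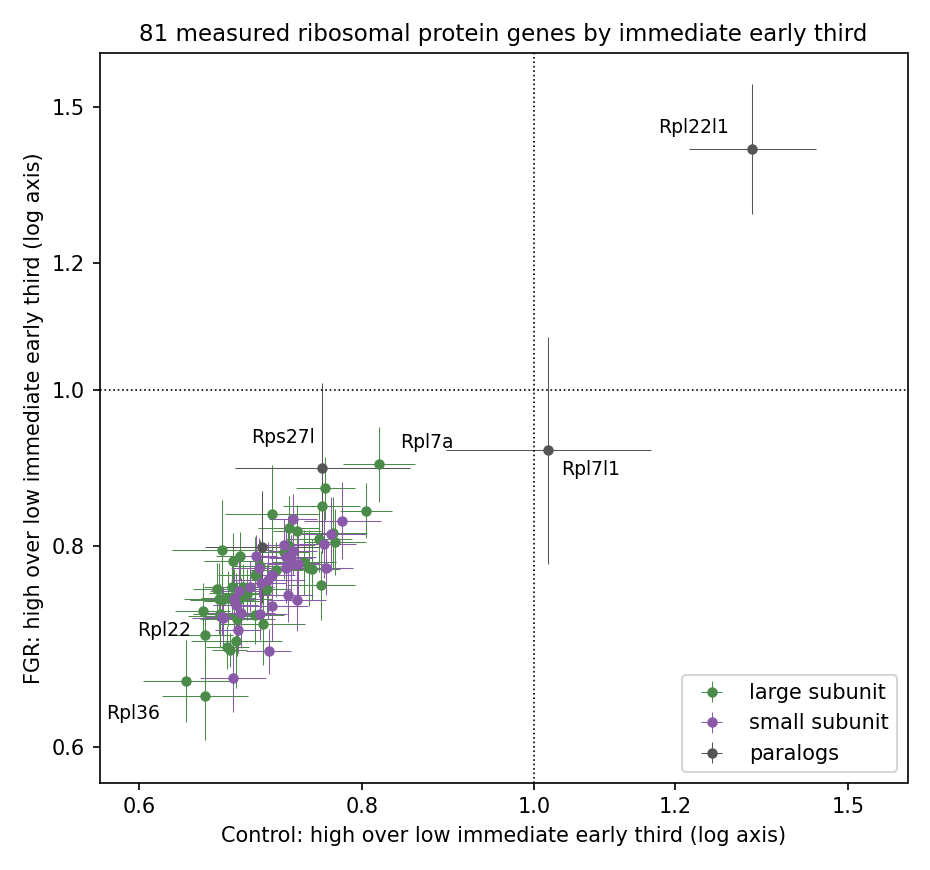
Level in the highest over the lowest stratum of cells by immediate early UMIs, Control on the horizontal and FGR on the vertical axis (both log), for the 81 measured members; bars are 95% counting intervals, colours mark the subunit or paralogs, and dotted lines mark 1. All 77 core genes lie at the lower left between 0.637 and 0.899, Rpl7l1 lies near 1, and Rpl22l1 alone lies above 1 on both axes.

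Other ranges of cells were compared with the remaining cells of their library. The 10% of cells with the most nuclear RNA had a member share of 6.79% against 9.29% in the other Control cells and 6.81% against 9.21% in FGR, differences of -2.50 and -2.40 percentage points. The mitochondrially coded share of these cells was 1.69% against 2.24% and 1.95% against 2.20%. Cells called chemokine-positive here held at least 3 UMIs of a list of 8 genes at 1500 UMIs per cell. The list was Ccl3, Ccl4, Ccl2, Ccl12 and Cxcl2 with the cytokine genes Tnf, Il1a and Il1b. Such cells made up 37.4% of Control and 53.1% of FGR cells. Their member share was 8.82% against 8.88% in other Control cells and 8.94% against 8.62% in FGR. Cells with proliferation, interferon, activation, MHC class II or oligodendrocyte transcripts were between 0.430% and 2.49% of a library, and their member shares lay within 1.39 percentage points of the other cells.

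Genes whose UMIs followed the members from cell to cell were found by correlating each gene with the summed other members. Log values at 1500 UMIs per cell were used. Non-members needed at least 300 CPM in both libraries, while members were taken at any level. Core members had a median Pearson r of 0.41 in both libraries, from 0.22 to 0.61. The r followed the level closely (Spearman rho 0.95 and 0.94), so a low r mostly marks a low count. Rplp1 (0.53 and 0.61), Rps29 (0.56 and 0.60), Rps14 (0.52 and 0.52), Rpl13 (0.50 and 0.52), Rps12 (0.49 and 0.55) and Rps24 (0.49 and 0.53) were the highest. Rpl4 (0.22 and 0.22), Rpl31 (0.24 and 0.24) and Rpl7a (0.25 and 0.25) were the lowest core members, and the measured paralogs Rpl36al (0.15 and 0.15), Rps27l (0.06 and 0.03), Rpl22l1 (0.04 and 0.06) and Rpl7l1 (-0.02 and -0.03) lay under them. These paralogs were also lower in level than every core member. Rpl7a stood low for its level of 690 and 666 CPM.

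Among 376 non-members, whose median r was -0.05 in both libraries, the nearest to the members included TOP mRNAs. Tpt1, which encodes the abundant translationally controlled tumour protein, had 0.60 and 0.61, Fau 0.54 and 0.57, and Eef1a1, the elongation factor that delivers tRNAs, 0.45 and 0.46. Tmsb4x, which encodes an actin-binding peptide, had 0.49 and 0.48, and the mitochondrially coded mt-Atp6 (0.43 and 0.45), mt-Co3 (0.39 and 0.43), mt-Co2 (0.39 and 0.39) and mt-Cytb (0.35 and 0.38) completed the 8 highest. The most opposite included the nuclear RNA Malat1 (-0.46 and -0.49), the immediate early genes Jun (-0.35 and -0.35), Rhob (-0.29 and -0.32), Jund (-0.28 and -0.29), Btg2 (-0.25 and -0.26) and Klf2 (-0.21 and -0.26), and the RNA helicase gene Ddx5 (-0.26 and -0.25). The summed UMIs of the 75 mitochondrial ribosomal protein genes, which build a separate ribosome, had an r of 0.04 and 0.04 with the members. Those of the 23 TOP partners had 0.80 and 0.82. These r values were taken without logs. The sums also differed in level, at 2620 and 2539 CPM against 16059 and 14790 CPM, and r followed level among the core members.

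**Figure D5:**
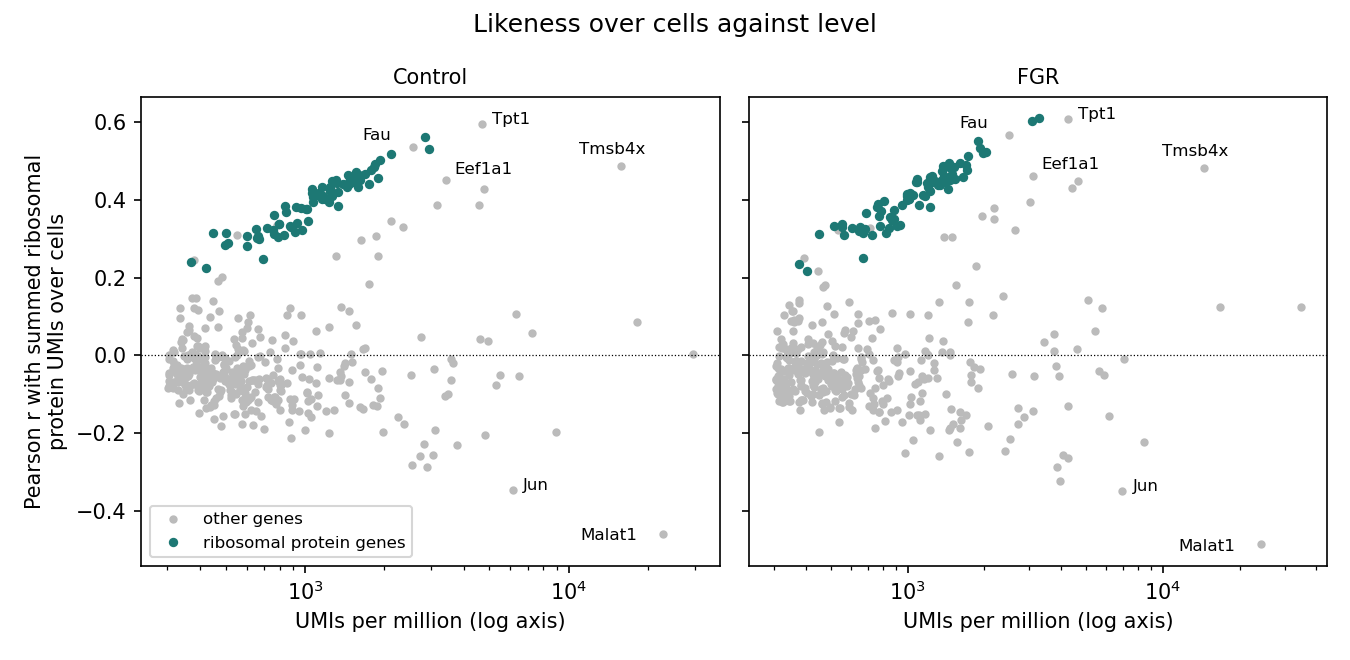
Pearson r over cells between each gene and the summed ribosomal protein UMIs (log values, cells thinned to 1500 UMIs), against level in CPM (log axis), for core members (green) and the 376 other genes of at least 300 CPM (grey), Control left and FGR right. Core members form a band from 0.22 to 0.61 that climbs with level; Tpt1 and Fau lie beside it, and Malat1 lies lowest at -0.46 and -0.49.

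The other genes of the translation pathway were read from lists of known members. Of all measured genes, 5.52% were higher and 7.92% lower by the 1.2-fold rule, and their median log2 ratio was -0.07. TOP partners, non-ribosomal genes with TOP mRNAs, counted 23 with 22 measured; 0 were higher and 2 lower by the 1.2-fold rule, and their median log2 ratio was -0.11. The lower ones were Gas5, a snoRNA host gene (281 and 222 CPM, ratio 0.790), and Pabpc1, the cytoplasmic poly(A)-binding protein gene (602 and 482 CPM). Eif3e (127 and 105 CPM, ratio 0.830) and Eif3f (216 and 187 CPM, ratio 0.863) followed. Tpt1 (4686 and 4252 CPM, ratio 0.907), Eef1a1 (3435 and 3102 CPM, ratio 0.903) and Rack1, a scaffold on the small subunit (780 and 710 CPM, ratio 0.910), lay lower than most core members. Fau (2561 and 2496 CPM, ratio 0.975) lay among them.

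Among 25 initiation factors, 22 were measured and 5 were lower and 0 higher by the 1.2-fold rule (median log2 ratio -0.11). Over all measured genes 7.92% were lower and 5.52% higher by this rule (median -0.07), which is also the background for the lists that follow. Eif5 (487 and 365 CPM, ratio 0.749), the helicase gene Eif4a1 (549 and 414 CPM, ratio 0.755), Eif4g2 (586 and 453 CPM, ratio 0.772) and Eif4a2 (421 and 331 CPM, ratio 0.788) were the farthest from 1. Ribosome biogenesis factors counted 40 with 11 measured, of which 1 was higher, the nucleolar GTPase gene Gnl3 (84.7 and 107 CPM, ratio 1.27), and 0 lower. Nop56 (70.9 and 59.1 CPM, ratio 0.833), Ubtf (108 and 93.0 CPM, ratio 0.861) and nucleolin, Ncl (417 and 363 CPM, ratio 0.871), did not pass. Of 25 mTORC1 and S6 kinase genes 15 were measured. Ddit4, an inhibitor of mTORC1 induced by stress and glucocorticoids, had 52.6 and 304 CPM (ratio 5.78, 5.55 to 6.02) and was the 1 gene of the list past the 1.5-fold rule, which 2.48% of measured genes passed upward. Sesn1, another inhibitor upstream of mTORC1, had 86.2 and 114 CPM (ratio 1.32), Rps6ka1, a kinase of Rps6, 250 and 203 CPM (ratio 0.809), and Rragc, a GTPase that recruits mTORC1 to lysosomes, 83.5 and 68.5 CPM (ratio 0.820). Of 15 ribosome rescue and turnover genes 7 were measured and 1 was lower, Mdm2 (69.0 and 52.2 CPM, ratio 0.757); Rnf10 (82.2 and 71.7 CPM), G3bp2 (240 and 210 CPM) and Nemf (71.8 and 66.2 CPM) did not pass. Of the 75 mitochondrial ribosomal protein genes 10 were measured and 0 passed in either direction (median log2 ratio 0.02), with Mrpl52 (95.1 and 114 CPM), Mrpl24 (99.6 and 86.9 CPM), Mrps15 (46.7 and 53.2 CPM) and Mrpl43 (96.8 and 88.9 CPM) farthest from 1.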

How the data were processed

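The deposited files hold unnormalised UMI counts for every barcode and gene, including barcodes that are no cells. Their headers name Cell Ranger 4, whereas the submitters' processing notes name Cell Ranger 3.0, Seurat 5.0 and the build mm10; which annotation and strand setting were used is not stated there. Groups came from the sample titles. The matrices held 1961707 and 1935841 barcodes; barcodes with at least 1500 UMIs, 200 genes and at most 10% mitochondrial UMIs were used, which kept 90.8% and 89.4% of UMIs. No doublets were removed, and 1 alternative dropped the deepest 6% of cells. Where a symbol had several IDs (38 symbols), their counts were added. UMIs were summed per library and scaled to CPM over all UMIs of the cells. Cells were thinned to 1500 UMIs with a fixed seed for strata, classes and correlations. Coding lengths and gene coordinates came from GENCODE M21 (GRCm38), near-identical copies from blastn 2.17.0, other steps from Python 3.11.15 with numpy 2.4.6, scipy 1.17.1 and pandas 2.3.3.

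The members and lists were chosen with earlier results of these data known. Named by level were the 10 highest and 10 lowest core members. By ratio and by correlation over cells, the 6 highest and 6 lowest were named. All members with a listed role and all paralogs were named too. From each pathway list came up to 4 measured genes with the largest absolute log2 ratio, with Fau, Rack1, Eef1a1 and Tpt1. The last were the 8 non-members at either end of the correlations. Some genes this rule names are not reported here. Rpl41, Rpl22, Rpl36, Rpl35, Rpl7a and other genes outside this rule in the strata were named after their values were seen. Alternatives covered the cell filters, marker-selected cells, weighting, thinning, free RNA, immediate early strata, scaling and the CPM minimum.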

Additional observations from a re-analysis of the deposited data

Results flagged for a closer look

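In 5 ranges of cells the member share differed from that of the other cells in opposite directions in the libraries; whether the libraries differ in this was not tested. In cells with proliferation transcripts the difference was -1.39 percentage points in Control (46 cells) and 0.351 in FGR (45 cells). With interferon-induced transcripts it was -0.189 and 0.327, with activation transcripts -0.0728 and 0.272, and in chemokine-positive cells -0.0595 and 0.327. With MHC class II transcripts it was 0.342 and -0.0773. The counting intervals for activation in Control (-0.209 to 0.0640) and for MHC class II in FGR (-0.232 to 0.0772) held 0. For 4 of the 5 ranges the signs were alike in both libraries under another setting: proliferation gave -0.716 in FGR with at least 5 UMIs of the list, interferon 0.0592 in Control and activation 0.965 and 0.972 with that minimum, and MHC class II 0.172 and 0.0617 with cells thinned to 2500 UMIs.

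Symbols marked -ps, which the member rule leaves out, held UMIs above the limit of 3 counts. Rpl10-ps3 had 1717 UMIs in Control and 1436 in FGR cells, Rpl9-ps6 956 and 860, Rpl36a-ps1 155 and 131, and Rpl9-ps1 21 and 16. Rpl10-ps3 is 100% identical to Rpl10 over 740 aligned bases, and Rpl10 itself had 71517 and 55728 UMIs.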

How the results depend on the processing

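The ratio of member shares, 0.985, stayed under 1 under 9 of 10 alternatives and turned to 1.06 when cells were matched on immediate early strata. It was 0.980 at a minimum of 2500 UMIs, 0.991 in cells with microglial and few other markers, 0.983 without the 6% of cells with the most UMIs, 0.990 with cells weighted equally, 0.990 with cells thinned to 1500 UMIs and 0.981 with free RNA subtracted. The median log2 ratio of the members turned to 0.0725 under the matching and to 0.0430 when scaled to the median measured gene. No alternative gave a member past the 1.5-fold rule, and the matching gave 1 past the 1.2-fold rule, as did free RNA barcodes in place of cells. The rho of coding length and ratio lay between -0.70 and -0.68 in the cells under every setting. The difference between the highest and lowest immediate early strata kept its sign throughout: in Control and FGR it was -3.34 and -2.36 percentage points with cells thinned to 2500 UMIs, -3.89 and -3.12 between the outer of 5 strata, -3.41 and -2.84 with the list left in the total, -2.91 and -2.09 at a mitochondrial limit of 5%, -3.13 and -2.54 in marker-selected cells, -3.11 in Control without the 6% of cells with the most UMIs, and, added after seeing the data, -2.82 and -2.24 in cells of 4000 to 6000 UMIs and -3.38 and -2.66 without mitochondrial and nuclear genes in the total. The nuclear RNA difference kept its sign, while most small cell classes were less stable, and for these the cause was not tested. At least 5 UMIs of the list gave -0.716 for proliferation in FGR, 0.0592 and 0.881 for interferon, 0.965 and 0.972 for activation and -0.186 and 1.76 for oligodendrocyte transcripts; MHC class II left too few cells and was not run. Thinning to 2500 UMIs gave -0.615 and -0.421 for proliferation, -0.675 and -0.00637 for activation, -0.0909 and 0.543 for chemokines, 0.191 and -0.0970 for oligodendrocyte transcripts and -2.31 for nuclear RNA in FGR. With list genes left in the total, chemokines gave -0.116 and 0.245 and nuclear RNA -2.59 and -2.52. The median correlation of core members over cells was 0.479 and 0.484 at 2500 UMIs, which left out 395 and 380 cells, and 0.468 in FGR without logs. No paired analysis was possible because each group has 1 library. Small classes limit precision, since counting intervals do not cover the spread between cells or animals.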
